A study of Mus musculus with 6 samples.

Results

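The genes described here encode the machinery that copies DNA in S phase. The list of 43 genes was set by gene name, but it was chosen with earlier results of these data known. It falls into 11 complexes or functional groups: the MCM helicase, the origin recognition complex, licensing factors, the kinase that fires origins, the factors that turn the helicase on, 3 sets of DNA polymerase subunits, the sliding clamp with its loader, the single-strand binding protein RPA, and the enzymes that finish Okazaki fragments. All 43 were measured among 19938 genes, so no gene of the list is missing. Where several probe sets (groups of array probes read as 1 value) carried only that gene's symbol, the brightest on average across the arrays was taken.

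The arrays were hybridised with biotin-labelled total RNA of mouse induced pluripotent stem cells (iPSCs), which are fibroblasts reprogrammed to a pluripotent state. The groups were 3 arrays of cells in naive culture and 3 of cells in primed culture. Naive medium contained 15% fetal bovine serum and 1000 U/ml of leukaemia inhibitory factor (LIF). Primed medium was conditioned by mouse embryonic fibroblasts and carried 8 ng/ml of basic FGF, and cells were grown on feeders or matrigel. By the sample titles the naive lines came from embryonic and the primed lines from adult dermal fibroblasts, while another label names embryonic fibroblasts for all 6 arrays. If the titles hold, culture state and line of origin cannot be told apart. The titles call the arrays of a group biological replicates but do not say what was repeated (a culture, a line or an animal), and the labels name no genotype or sex, so the tests measure the spread among these arrays.

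DNA replication is prepared before S phase. The origin recognition complex (ORC) marks origins, and CDC6 and CDT1 then load the ring-shaped MCM helicase there in an inactive form, a step called licensing; geminin (Gmnn) blocks CDT1 once S phase has begun. The kinase CDC7 with its activator DBF4, together with MCM10, CDC45 and the GINS proteins, converts loaded MCM rings into the running helicase. Polymerase alpha with primase lays down primers, polymerase epsilon extends the leading and polymerase delta the lagging strand, RFC loads the clamp PCNA, and RPA covers single-stranded DNA. Mouse pluripotent cells divide fast, with a short G1 phase, and hold abundant licensing proteins.

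Many genes of this machinery are known targets of E2F transcription factors, which turn on genes for S phase. To show what such control regions look like in this list, the promoters in RefSeq (assembly GRCm38.p6, 250 bases before to 50 bases after each annotated start) were searched on both strands for the E2F-type letters TTTCCCGC, TTTGGCGC, TTTCGCGC and TTTGCCGC. Of the 43 genes, 35 had a promoter in that table, and 15 of these (42.9%) held at least 1 match, against 704 of 27025 genes (2.6%) in the whole table and 543 of 15614 (3.48%) among the genes measured here that have one. Matches on opposite strands can overlap, as in Mcm5 and Mcm6. The windows below, read in the direction of the gene, show genes that differed in each direction or did not pass the test. They were picked from the genes with a match, mostly those lower in primed cells. Matches lay in 6 genes lower in primed cells, 1 higher and 8 that did not pass. A gene with several annotated starts counted if any held a match, and 1 such start is shown. The Orc1 window lies before a start inside the span of the gene. Capitals mark the matched letters.
Mcm6 (chr1:128359735-128359825, minus strand): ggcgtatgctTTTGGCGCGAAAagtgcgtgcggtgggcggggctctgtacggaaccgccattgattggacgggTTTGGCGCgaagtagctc
Mcm5 (chr8:75109346-75109377, plus strand): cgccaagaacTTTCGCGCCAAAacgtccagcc
Orc1 (chr4:108579417-108579444, plus strand): tcggttagtgGCGCGAAAagttttctcc
Cdc6 (chr11:98908003-98908030, plus strand): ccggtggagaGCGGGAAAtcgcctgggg
Rfc3 (chr5:151651195-151651224, minus strand): gcacgcTTTCGCGCtcGCGGGAAAactcta
Pold3 (chr7:100121468-100121495, minus strand): agcgaagctgTTTCCCGCcggcgggagc
Cdt1 (chr8:122568037-122568064, plus strand): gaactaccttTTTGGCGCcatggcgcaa
Pole2 (chr12:69228163-69228190, minus strand): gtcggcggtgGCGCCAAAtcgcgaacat

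The arrays of a group resembled each other closely, with correlations across genes of 0.998 to 0.999 within groups and 0.980 between them. The table of values carries no detection calls. A group was therefore taken to be in background for a gene where each of its arrays lay under the value below which 95% of 1194 smell and pheromone receptor genes fell on that array (6.96 to 7.02). No replication gene was in background in both groups. Of the pluripotency markers, Pou5f1 stood at 12.59 ± 0.05 in naive and 11.53 ± 0.07 in primed cells (SD, n = 3) and Sox2 at 12.42 ± 0.01 and 11.90 ± 0.06 (SD, n = 3), while Zfp42 was in background in both.

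Levels are log2 values made by RMA (robust multi-array average), and differences are primed minus naive on that scale, so a negative difference is a lower level in primed cells. Of the 43 replication genes, 20 were lower in primed cells, 5 were higher and 18 did not pass the test (limma, Benjamini-Hochberg adjusted p under 0.05 over all 19938 genes). Over all genes 22.7% were lower and 21.8% higher in primed cells by the same rule, against 46.5% and 11.6% of the replication genes. The differences were small, from -0.56 for Rpa2 to 0.61 for Pold2, with a median size of 0.19. Their median was -0.12, against -0.0015 over all genes.

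Replication genes are brighter on the arrays than most genes, with a median percentile of 88.3 by mean level, and bright genes were themselves more often called. Among the 2860 genes whose mean lay between 10.34 and 11.58, the quartiles of the replication genes, 39.0% were lower and 25.5% higher in primed cells, with a median difference of -0.07. Beside those genes, the share of replication genes lower in primed cells was near the background and the share higher in primed cells lay below it. After the 40% of genes with the lowest mean level were left out, 34.0% of the remaining genes were lower and 31.7% higher in primed cells, and 21 and 7 of the replication genes.

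The counts also moved with the scaling of the arrays. Of the 25 calls 80.0% were toward naive cells on the deposited values. When each array was centred on its median over the genes tested, 26 replication genes were lower and 3 higher in primed cells (89.7% toward naive), with 31.7% and 17.2% of all genes. With quantile normalization 17 were lower and 9 higher (65.4% toward naive), with 22.9% and 23.0% of all genes. Across these and the other settings tried, 17 of the 20 lower calls and 3 of the 5 higher calls held every time. Of the 18 genes that did not pass, 7 stayed so every time, and each of the others passed in some setting.

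**Figure D1:**
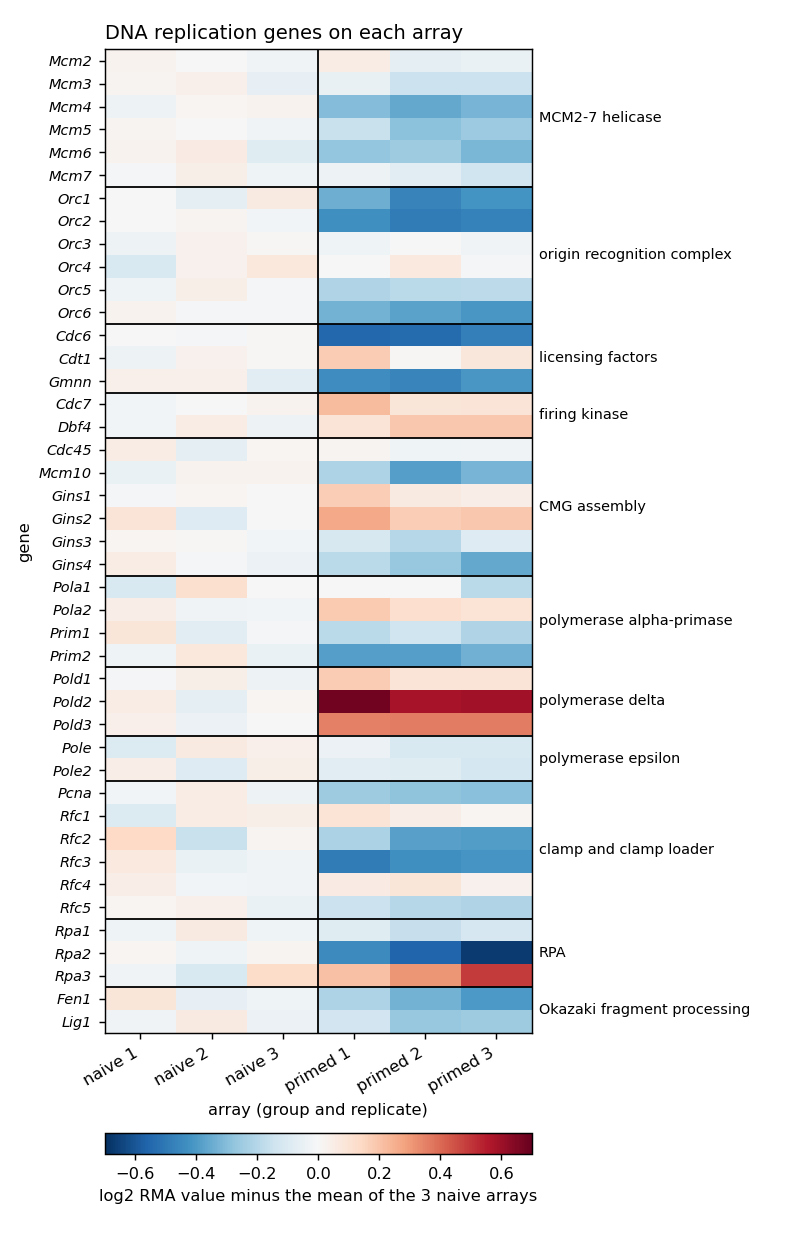
Heat map of the 43 replication genes (rows, grouped by complex) on the 6 arrays (columns), coloured by the log2 RMA value minus the mean of the 3 naive arrays, blue lower and red higher. The 3 primed arrays are blue for most ORC, MCM and licensing genes and red for Pold2 and Pold3.

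The 6 MCM genes, whose proteins form the hexameric ring of the helicase, divided into 3 that fell and 3 that did not pass. Mcm4 read 11.76, 11.81 and 11.82 on the naive arrays and 11.49, 11.44 and 11.47 on the primed arrays. All primed values lay under all naive values, and the difference was -0.33 (SE 0.05, adjusted p = 0.000224). Mcm6 read 11.55, 11.58 and 11.44 in naive and 11.25, 11.27 and 11.20 in primed cells, a difference of -0.28 (adjusted p = 0.00152). Mcm5 differed by -0.23 (adjusted p = 0.00399), again without overlap. Mcm2 read 12.42, 12.39 and 12.37 in naive and 12.45, 12.33 and 12.35 in primed cells. The Mcm2 groups overlapped, with an interval of the difference from -0.14 to 0.10 (95%). The intervals of Mcm3 (-0.24 to 0.00) and Mcm7 (-0.20 to 0.03) reached further to the negative side, and neither gene passed. After median centring both were called lower in primed cells (adjusted p = 0.0118 for Mcm3 and 0.0282 for Mcm7).

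The origin recognition complex, which binds origins and starts licensing, had 4 subunit genes that fell and 2 that did not pass. The 66.7% that fell is a share of only 6 genes, against 22.7% of all genes and 39.0% of genes of like mean level. Orc2 read 11.023, 11.035 and 10.997 on the naive arrays and 10.59, 10.53 and 10.54 on the primed arrays, a difference of -0.46 (SE 0.05, adjusted p = 1.37e-05). Orc1, which brings the complex its ATPase activity, read 10.38, 10.31 and 10.44 against 10.04, 9.91 and 9.96. That difference was -0.41 (SE 0.06, adjusted p = 0.000111). Orc6, the smallest subunit, fell by 0.37 (adjusted p = 8.94e-05) and Orc5 by 0.19 (adjusted p = 0.00774), each with groups that did not overlap. Orc3 (difference -0.02, 95% interval -0.13 to 0.09) and Orc4 (0.02, interval -0.11 to 0.15) had overlapping groups and did not pass. The Orc5 call ended under quantile normalization (adjusted p = 0.0599).

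The 3 licensing factors did not move together. Cdc6, which loads MCM rings with ORC, read 9.60, 9.59 and 9.61 on the naive arrays and 9.05, 9.06 and 9.12 on the primed arrays. The gap of -0.52 (SE 0.05, adjusted p = 5.47e-06) was many times the spread within either group. Gmnn, for the inhibitor geminin, read 8.14, 8.14 and 8.03 against 7.67, 7.64 and 7.70, a difference of -0.44 (SE 0.05, adjusted p = 4.52e-05). Cdt1, the loading factor that geminin holds back, read 11.51, 11.58 and 11.56 in naive and 11.72, 11.56 and 11.63 in primed cells. Its groups overlapped, and the interval of the difference was -0.04 to 0.22. Under quantile normalization Cdt1 was called higher in primed cells (adjusted p = 0.0231). On the array-by-array scale, Cdt1 minus Cdc6 was 1.91, 1.99 and 1.95 in naive and 2.68, 2.50 and 2.51 in primed cells. This contrast was 0.61 higher in primed cells (exact permutation test, two-sided p = 0.1, the smallest that 3 against 3 arrays allow). The pair was chosen after its values were seen, so the p-value adds no support.

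Genes for origin firing went in both directions. Dbf4, the activator of the CDC7 kinase, read 11.37, 11.44 and 11.36 in naive and 11.48, 11.58 and 11.58 in primed cells, a rise of 0.16 (adjusted p = 0.0360). That call did not hold without naive replicate 1 (adjusted p = 0.0881), naive replicate 3 (0.121), primed replicate 2 (0.114) or primed replicate 3 (0.118), nor after median centring (0.241). Cdc7 did not pass (0.13, interval 0.01 to 0.25, adjusted p = 0.0829), although its groups did not overlap. With the dim genes left out Cdc7 was called higher in primed cells (adjusted p = 0.045). Mcm10, a factor needed to open the loaded helicase, fell by 0.31 (adjusted p = 0.00103), with primed values of 10.81, 10.64 and 10.71 under naive values of 10.98, 11.05 and 11.05.

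Of the 4 GINS genes, whose proteins hold CDC45 on the helicase, Gins4 fell by 0.27 (adjusted p = 0.00257) and Gins2 rose by 0.21 (adjusted p = 0.0140). Gins2 read 10.19, 10.01 and 10.10 in naive and 10.36, 10.27 and 10.29 in primed cells. The Gins2 call ended without naive replicate 2 (adjusted p = 0.0594) and after median centring (adjusted p = 0.0672). Gins1 (interval -0.02 to 0.21) and Gins3 (interval -0.25 to -0.02, adjusted p = 0.057) did not pass. After median centring Gins3 was called lower in primed cells (adjusted p = 0.00616). Cdc45 differed by -0.01 (interval -0.13 to 0.11), with overlapping groups.

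**Figure D2:**
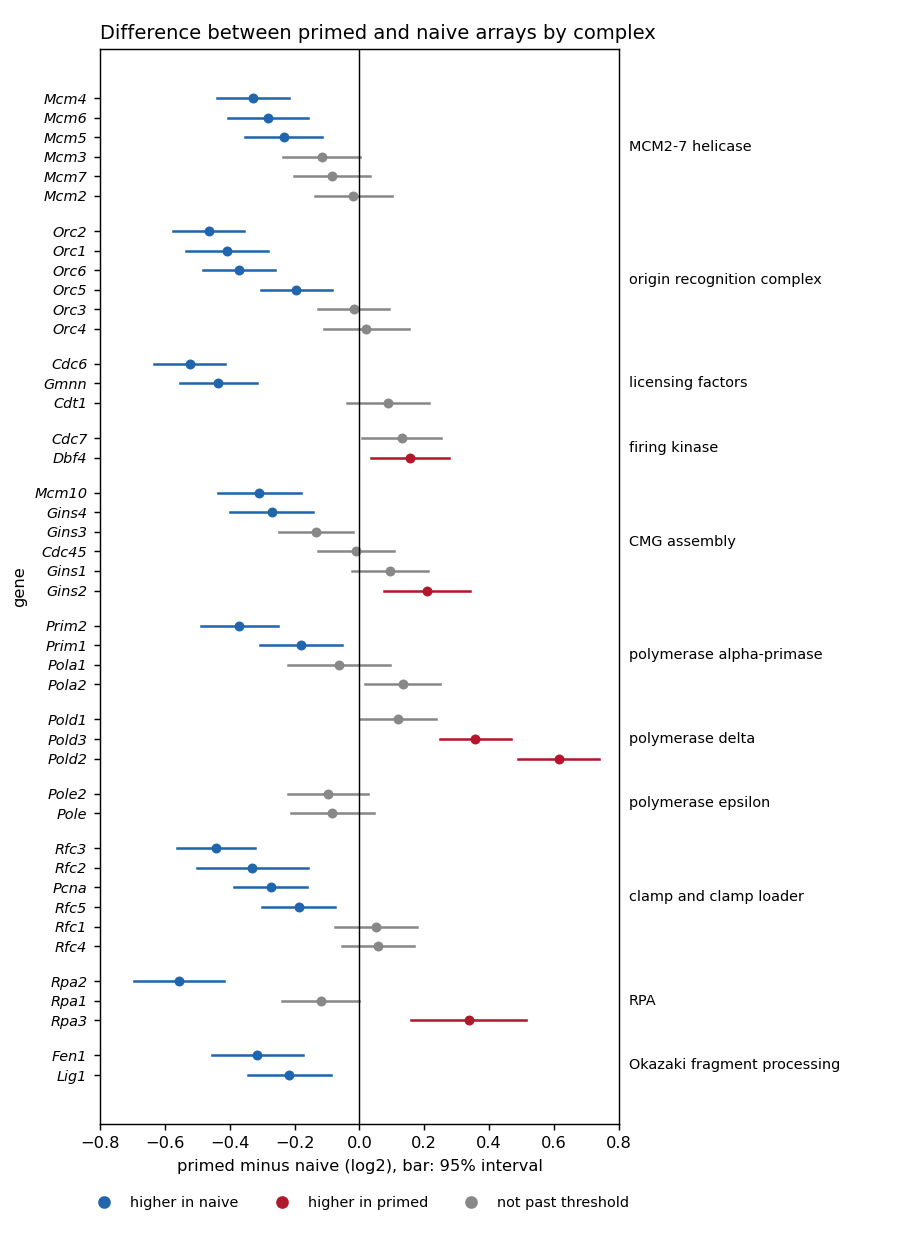
Difference between primed and naive arrays (log2, x axis) for each of the 43 genes, grouped by complex, with 95% intervals from limma, coloured by call at an adjusted p under 0.05. The ORC, MCM, licensing and clamp groups lie mostly left of 0, and the polymerase delta genes lie right of it, up to 0.61 for Pold2.

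The polymerases differed by subunit. For polymerase delta, the lagging-strand enzyme, all 3 listed genes had primed values above all naive values, as did both genes of the firing kinase. Over all genes 25.9% had every primed value above every naive value, and among the genes of like mean level 30.2%. Pold2, a regulatory subunit, read 11.89, 11.77 and 11.85 on the naive arrays and 12.51, 12.41 and 12.43 on the primed arrays. This rise of 0.61 (SE 0.06, 95% interval 0.49 to 0.74, adjusted p = 3.85e-06) was the largest difference of the 43 genes in either direction and corresponds to a level 53.1% higher. Pold3, which carries a PCNA-binding motif, read 11.42, 11.34 and 11.39 in naive and 11.74 on each primed array, a rise of 0.36 (SE 0.05, adjusted p = 0.000112). Pold1, the catalytic subunit, did not pass (0.12, interval 0.00 to 0.24, adjusted p = 0.093). Under quantile normalization Pold1 was called higher in primed cells (adjusted p = 0.00664). Pold4, the fourth subunit, is outside the list of 43. It rose by 0.64 (adjusted p = 2.36e-05).

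Polymerase alpha and primase work as a unit that makes primers. Prim2, the large primase subunit, fell by 0.37 (SE 0.05, adjusted p = 0.000161), from 11.10, 11.21 and 11.09 to 10.74, 10.74 and 10.79. Prim1, the catalytic primase subunit, fell by 0.18 (adjusted p = 0.0235). This Prim1 call ended without naive replicate 1 (adjusted p = 0.0917), naive replicate 3 (0.0536), primed replicate 1 (0.0533) or primed replicate 3 (0.0784), and under quantile normalization (0.108). The polymerase subunits Pola1 (interval -0.22 to 0.10) and Pola2 (interval 0.02 to 0.25, adjusted p = 0.0613) did not pass. Under quantile normalization Pola2 was called higher in primed cells (adjusted p = 0.00374). For polymerase epsilon, the leading-strand enzyme, neither Pole (-0.08, interval -0.21 to 0.04) nor Pole2 (-0.10, interval -0.22 to 0.03) passed. The groups overlapped for both. After median centring both were called lower in primed cells (adjusted p = 0.044 for Pole and 0.0248 for Pole2).

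The clamp PCNA and 3 of the 5 genes of its loader RFC were lower in primed cells. That is 66.7% of clamp and loader genes, against 22.7% of all genes and 39.0% of genes of like mean level. Pcna read 13.25, 13.32 and 13.23 in naive and 13.02, 12.99 and 12.97 in primed cells, a difference of -0.27 (SE 0.05, adjusted p = 0.00101). The other probe set annotated to Pcna had nearly the same value on every array and the same accessions, so it is no separate measurement. The annotation lists near-identical copies of Pcna on chromosomes 19 and X, so the signal of either probe set cannot be assigned to the gene alone. Rfc3 read 11.02, 10.90 and 10.92 against 10.46, 10.52 and 10.54, a difference of -0.44 (SE 0.05, adjusted p = 4.1e-05). Rfc2 differed by -0.33 (adjusted p = 0.00438), with the widest naive spread of the 43 genes at 0.15 (SD, n = 3). Rfc5 fell by 0.19 (adjusted p = 0.0110), a call that ended under quantile normalization (adjusted p = 0.133). Rfc1, the large subunit (interval -0.08 to 0.18), and Rfc4 (interval -0.05 to 0.17) did not pass. Under quantile normalization Rfc4 was called higher in primed cells (adjusted p = 0.0359).

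RPA, a trimer that coats single-stranded DNA, had subunits that moved in opposite directions. Rpa2, the subunit that checkpoint kinases phosphorylate, read 11.25, 11.21 and 11.26 on the naive arrays and 10.79, 10.69 and 10.57 on the primed arrays. At -0.56 (SE 0.06, adjusted p = 2.12e-05) it was the largest fall of the 43 genes. Rpa3, the smallest subunit, read 10.95, 10.86 and 11.10 against 11.18, 11.28 and 11.46. It was 0.34 higher in primed cells (SE 0.08, adjusted p = 0.00506), without overlap but with a wider spread. A dimmer probe set of Rpa3 rose by 0.46 (adjusted p = 0.000102 in a fit over all probe sets with 1 symbol). Rpa1, the large DNA-binding subunit, did not pass (-0.12, interval -0.24 to 0.00, adjusted p = 0.094). After median centring Rpa1 was called lower in primed cells (adjusted p = 0.0111). Rpa3 minus Rpa2 was -0.31, -0.34 and -0.16 on the naive arrays and 0.39, 0.59 and 0.89 on the primed arrays, a shift of 0.89 (exact permutation test, two-sided p = 0.1, the smallest possible here). Of the 5 such within-array contrasts computed, all chosen after the values were seen, this shift was the largest. Because of that choice their permutation p-values add no support.

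**Figure D3:**
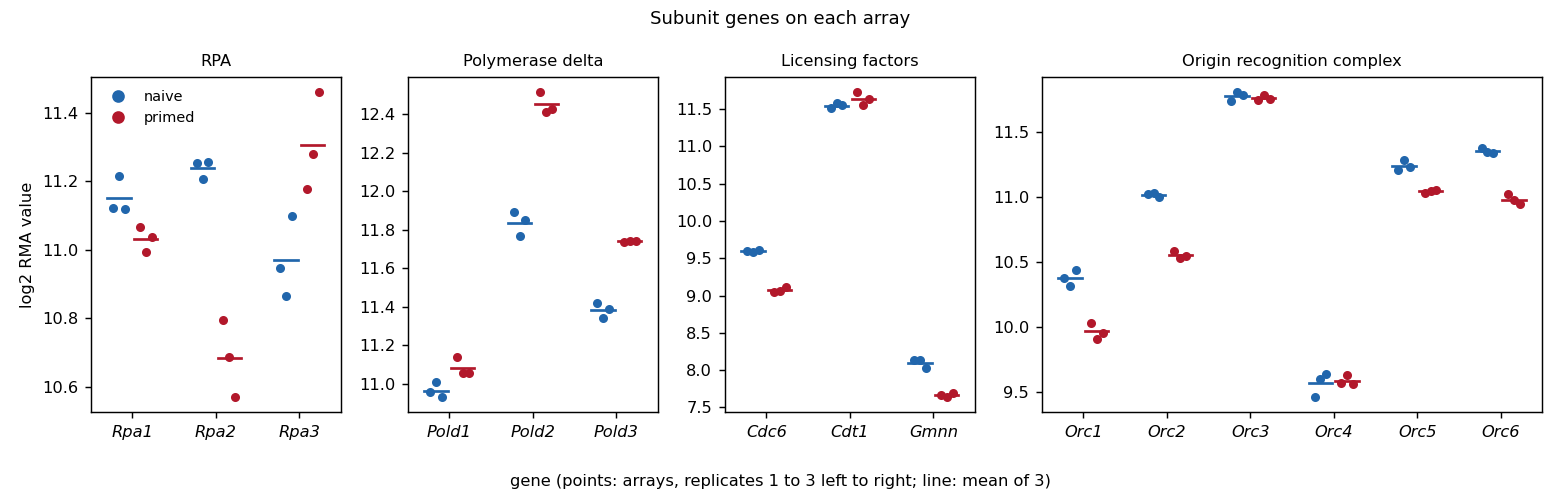
Log2 RMA values (y axis) of the RPA, polymerase delta, licensing and ORC genes on each array, naive in blue and primed in red, with a line at the mean of 3 arrays. Rpa2 and Rpa3 moved apart, Pold2 and Pold3 rose, Cdc6 and Gmnn fell while the Cdt1 groups overlap, and Orc3 and Orc4 overlap between the groups.

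Both genes that finish Okazaki fragments, the short pieces of the lagging strand, fell in primed cells. By the same test 22.7% of all genes and 39.0% of genes of like mean level fell. Fen1, for the nuclease that trims the flap left by the primer, read 10.25, 10.11 and 10.14 against 9.95, 9.84 and 9.77, a difference of -0.32 (SE 0.06, adjusted p = 0.00159). Lig1, for the ligase that seals the nick, differed by -0.22 (adjusted p = 0.00959), from 11.12, 11.20 and 11.10 to 11.01, 10.87 and 10.89. Neither pair of groups overlapped, and over all genes 27.0% had every primed value under every naive value. Pold2 and Pold3, which also act on the lagging strand, differed in the opposite direction.

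**Figure D4:**
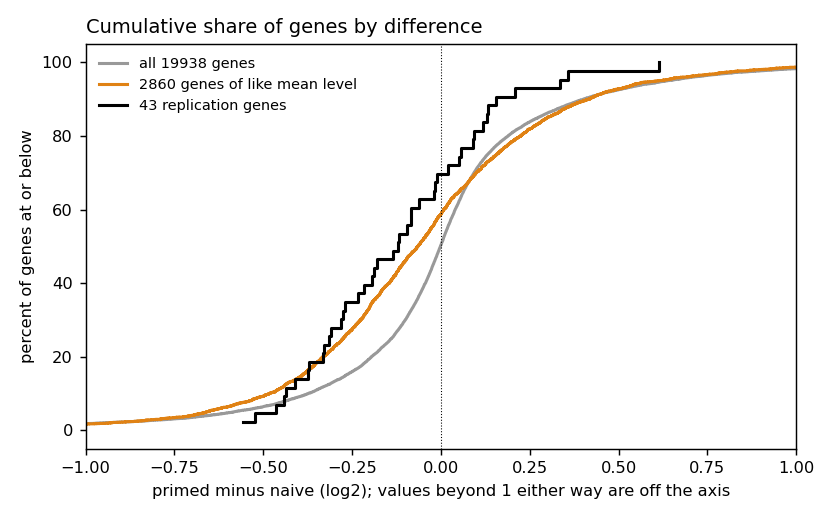
Cumulative percent of genes (y axis) at or below each difference between primed and naive arrays (log2, x axis), for all 19938 genes, the 2860 genes of like mean level and the 43 replication genes. The replication genes lie left of all genes through the middle of the range, nearer to the genes of like level, and lack the long tails of both.

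Counted by overlap, 23 replication genes (53.5%) had every primed value under every naive value, 9 (20.9%) had every primed value above, and 11 overlapped. Over all genes these shares were 27.0% under and 25.9% above, and among the genes of like mean level 44.2% and 30.2%. The promoter letters were found in 6 of 15 genes lower in primed cells, 1 of 4 higher in primed cells and 8 of 16 that did not pass. Pold2, Rpa3 and Dbf4, each called higher in primed cells, had no match in the 300 bases searched; nor did Rpa2 and Orc2, which fell. The 43 genes lie on 14 chromosomes, with 9 on chromosome 5 and 6 on chromosome 8. On chromosome 5, 4 genes fell and 1 rose, and on chromosome 8, 3 fell and 1 rose. Of all 43 genes 46.5% fell and 11.6% rose, and of all genes tested 22.7% and 21.8%. Shares over all genes of each chromosome were not counted.

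Genes that work beside this machinery were read from 8 further lists, of which 90 genes were analysed here. Of these 90, 38 (42.2%) fell, 15 (16.7%) rose and 37 stayed short of the threshold in primed cells. The shares over all genes were 22.7% lower and 21.8% higher, and among genes of the replication genes' level 39.0% and 25.5%, so the lower share was near that of bright genes. Other replisome and origin-firing genes gave 8 lower, 3 higher and 9 not passing of 20. Tipin, a fork protection factor, fell by 0.48 and Wdhd1, which links helicase and polymerase alpha, fell by 0.36. Rnaseh2b, a subunit of the enzyme that removes ribonucleotides, rose by 0.57 and Mtbp, which helps to fire origins, by 0.45. Alternative clamp loaders and histone chaperones gave 7 lower, 1 higher and 2 not passing of 10. They include Chtf18 (-0.65) and Dscc1 (-0.51) of the loader used for sister chromatid cohesion, Asf1a (-0.51) and Chaf1a (-0.44). Chaf1a and Chaf1b encode partners in the same chaperone, and Chaf1b rose by 0.16.

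Genes of nucleotide supply gave 4 lower, 1 higher and 4 not passing of 9, with Tyms (-0.43) and Tk1 (-0.43), both for enzymes that make thymidine nucleotides, in the lead. The ribonucleotide reductase genes Rrm1 (-0.07, adjusted p = 0.326) and Rrm2 (-0.09, adjusted p = 0.225) did not pass. MCM and clamp relatives gave 2 lower and 2 higher of 8, and checkpoint genes 3 lower and 0 higher of 6. These counts stand beside 22.7% lower and 21.8% higher of all genes. Among genes of like mean level the shares were 39.0% and 25.5%. Rad17 (-0.41) and Rad1 (-0.35), for the loader and a subunit of the checkpoint clamp, were lower, and Rad9b (0.71), another clamp subunit gene, was higher in primed cells. Etaa1 (-0.44), for an activator of the kinase ATR, led the checkpoint list, in which Atr and Chek1 did not pass.

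Genes that control entry into S phase gave 6 lower, 4 higher and 4 not passing of 14. Their 42.9% lower and 28.6% higher were near the 39.0% and 25.5% of genes of like mean level. Over all genes the shares were 22.7% and 21.8%. Ccne2 (-1.04) and Ccne1 (-0.57), for the cyclins that drive S-phase entry with CDK2, fell, as did Cdc25a (-0.36) and Cdk2 (-0.22). Rb1, for the retinoblastoma protein that restrains E2F factors, rose from 9.04 ± 0.06 to 10.54 ± 0.04 (SD, n = 3), a difference of 1.51 (adjusted p = 2.89e-09). Cdkn1b, for a CDK inhibitor, rose by 0.51. Of the E2F genes, E2f1 rose by 0.53 while E2f4 fell by 0.44. Rb1 lies on chromosome 14, where none of the 43 genes lies. Of the other genes named here from that chromosome, Rnaseh2b rose and Wdhd1 fell.

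Genes that control the turnover of licensing factors gave 4 lower, 2 higher and 2 not passing of 8. Cul4b (-1.14) and Cul4a (0.66) encode alternative scaffolds of the ubiquitin ligase that destroys CDT1 in S phase, and they moved in opposite directions. Dtl, which brings CDT1 to that ligase, rose by 0.26, while Fzr1 (-0.37) and Fbxo5 (-0.33), for an activator and an inhibitor of the ligase that destroys geminin, both fell. Genes of mitosis gave 4 lower, 2 higher and 9 not passing of 15, with a median of -0.07. Their 26.7% lower and 13.3% higher were under the shares of genes of like mean level, whose median was also -0.07. Kif20a differed by -0.47 and Aurkb by 0.18, and Mki67, a general marker of cycling cells, did not pass (0.06, adjusted p = 0.57).

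**Figure D5:**
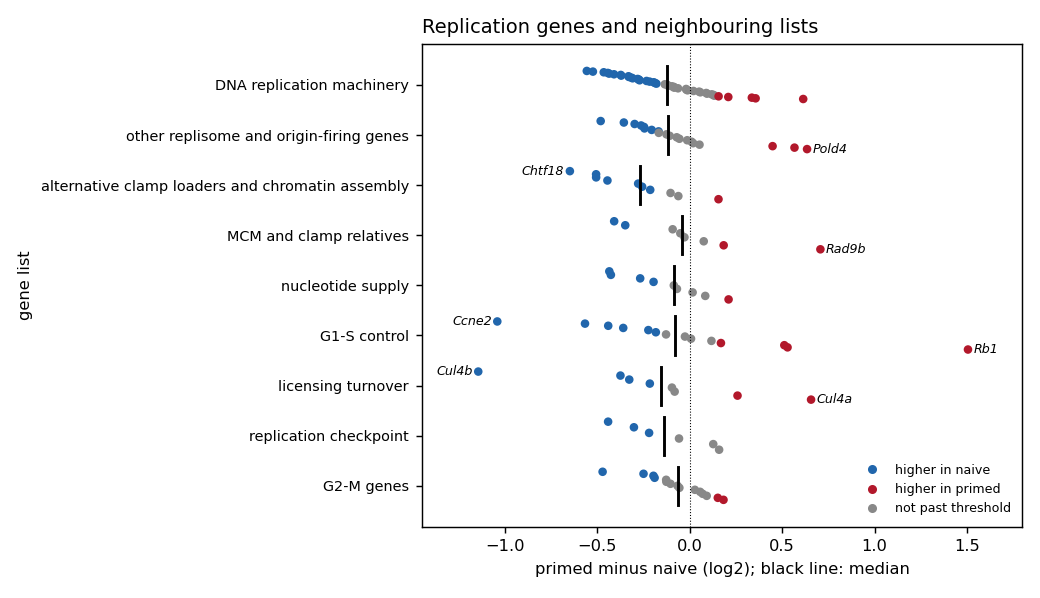
Difference between primed and naive arrays (log2, x axis) of each gene of the replication machinery and of 8 neighbouring lists (rows), coloured by call, with a black line at each median. Medians lie between -0.27 and -0.04, and genes of the neighbouring lists that differ by at least 0.6 are named.

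In bulk RNA, fewer cells in S phase and less RNA per cell cannot be told apart. Markers of other cell types and states moved as well, and their counts are to be read against the 22.7% lower and 21.8% higher of all genes. Of 10 pluripotency markers 7 were lower in primed cells and none higher, and their summed level was 15.37 to 15.40 on the naive arrays and 14.87 to 14.94 on the primed arrays (log2). Dppa4 (-1.74) and Dppa5a (-1.51), for small proteins typical of pluripotent cells, differed most. Dppa5a was in background in primed cells, so the size of its difference is uncertain. Of 15 fibroblast and feeder markers 7 were lower and 3 higher in primed cells. Their summed levels were 13.71 to 13.74 and 13.16 to 13.25. All such sums were taken on the unlogged scale, so the brightest genes weigh most. In this list these were Acta2 (11.82 in naive, 10.59 in primed cells), Tagln (11.84 and 10.75) and Mmp2 (11.46 and 11.05). The sum therefore mostly follows them and is no measure of fibroblast or feeder content. The largest difference of that list went against its sum: Dcn, for the matrix protein decorin, rose by 2.89, from 7.25 ± 0.08 to 10.15 ± 0.11 (SD, n = 3). Acta2 (-1.23), Tagln (-1.09) and Col1a1 (-0.76) fell, while Lum and Postn were in background in both groups. Markers of differentiating lineages gave 5 lower and 2 higher of 14, with summed levels of 11.93 to 11.96 and 11.63 to 11.71. Within it Pax6, a neural factor, rose by 2.29 from background in naive cells and Sox1, another, by 0.54. Eomes (-2.20), for a mesendoderm and trophoblast factor, and Gata3 (-1.28) and Hand1 (-0.60), both active in trophoblast, fell. Sox17, Afp and Mesp1 were in background in both groups. The part of these shifts in the replication results was not tested.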

How the data were processed

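Total RNA of 6 iPSC samples was measured on 6 oligonucleotide arrays. The deposited values are log2 values made by the authors with RMA in Partek 6.6, per the submitters' processing notes; its options and any genome build were not stated in those notes. RMA compresses differences of dim genes. The table holds 35556 probe sets, with a median of 7.77 to 7.83 per array. The number of arrays limits the precision.

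Probe sets with 1 gene symbol (21789; 1621 had several and 12146 are unnamed here) were matched to RefSeq by gene ID (21698 matched), which left 19938 genes. The comparison used lmFit and eBayes of limma 3.58.1 (R 4.3.3), two-sided and without covariates. The p-values were adjusted over all genes by Benjamini-Hochberg, with calls made under 0.05. On data simulated for this comparison with 19938 genes, 19738 of them unchanged, the fit found 14% of changes of 0.25, 88% of changes of 0.5, and 100% of larger ones. In the real data 22.7% of all genes were called lower and 21.8% higher in primed cells. With so many calls the adjusted threshold is easier to reach, so the simulated percentages do not give the sensitivity of the real comparison. The members and lists were chosen with earlier results of these data known. The text names all 43 members and, of each other list, some of those past the threshold with the largest differences (up to 4 in each direction). Cdk2, Rrm1, Rrm2, Atr, Chek1, Mki67, Sox2 and the markers in background in both groups were added after their values were seen. The genes of like mean level were also set after the data were seen. Python 3.11.15 was used for tables and figures.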

Additional observations from a re-analysis of the deposited data

How the results depend on the processing

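The number of replication genes higher in primed cells was 5 on the deposited values, 3 after median centring, 9 after quantile normalization and 3 at an adjusted p under 0.01. The median difference of the 43 genes was -0.19 after median centring, which moved the median of all genes to -0.07. With each array left out in turn, 19 to 20 replication genes were lower and 4 to 5 higher in primed cells, with a median difference of -0.15 to -0.10. Signs turned only for genes that did not pass: under quantile normalization Mcm2 (0.075) and Orc3 (0.055), after median centring Orc4 (-0.05), Rfc1 (-0.019) and Rfc4 (-0.013), and without single arrays Mcm2 (-0.056 to 0.0038), Orc4 (-0.032 to 0.058) and Cdc45 (-0.045 to 0.015). Same-numbered arrays did not deviate together (correlations of -0.11 to 0.00). With the replicate block 20 genes were lower and 4 higher, Dbf4 being lost (adjusted p = 0.052). The intensity trend gave 23 lower and 7 higher, and array weights and the mean over probe sets gave 20 and 5. Of the 18 genes that did not pass, 7 did so in every setting, so a missing call cannot be read as an equal level. The cause of these shifts was not tested.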
